A study of Mus musculus with 6 samples.

Results

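The sarcomere genes of striated muscle described here numbered 9 of the 55487 genes counted in mouse aorta. They were Nebl, Neb, Mybpc2, Mybpc3, Myh6, Ttn, Actc1, Acta1 and Xirp1, each found by its symbol. They were chosen by their measured values in the contrast of Prdm16-deleted and control aortas, so their differences are given below as a description, with no test. Nebl, Neb and Mybpc2 were 2.72-fold, 2.18-fold and 4.49-fold lower in the knockout aortas than in controls, with no overlap between the 3 libraries of each group. Mybpc3 ran the other way, at 0 to 9 counts in a control library and 30 to 74 in a knockout library. Ttn and Myh6 overlapped between the groups.

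Aortic RNA came from 3 control and 3 Prdm16 iSM KO mice at baseline, all male, on a C57BL/6 background, with the adventitia removed. Every mouse of either group bore Myh11-CreERT2 and was injected with tamoxifen (1 mg per mouse per day) on 10 days from 8 weeks of age; 2 weeks of washout and another 60 days followed. The iSM KO mice were Prdm16 F/F (floxed on both alleles) and the controls Prdm16 W/W. This Cre transgene is Y-linked, which limits the model to males, and it acts in smooth muscle cells, so that other cells of the aorta kept Prdm16. Bulk RNA cannot tell fewer cells of a type from less RNA per cell.

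The sarcomere is the repeating unit of heart and skeletal muscle, in which myosin thick filaments slide along actin thin filaments anchored at the Z-disc. Vascular smooth muscle cells contract with Acta2 actin and Myh11 myosin and have no sarcomeres. Their thin filaments attach to dense bodies. PRDM16 is a zinc finger transcriptional regulator best known from brown fat.

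Library totals ran from 24911609 to 40460467 counts, control 3 being the shallowest, and levels are given in CPM (counts-per-million, scaled with edgeR's TMM factors), of which 1 stood for 23.8 to 40.8 counts. Prdm16 itself, the check of the labels, was at 183, 223 and 179 CPM in controls 1 to 3 and at 93.8, 113 and 79.8 CPM in iSM KO 1 to 3, a log2 fold change of -1.03 ± 0.14 (SE) with an FDR of 0.00265 (edgeR quasi-likelihood test, Benjamini-Hochberg). It was lower in 3 of 3 iSM KO libraries. In the study Cre removes only the floxed exon, and a count per gene covers the other exons too. The remaining level is therefore no measure of how complete the deletion was. The labelled tissue matched its markers, since 8 smooth muscle markers summed to 24187 to 29041 CPM in controls and to 26034 to 28522 CPM in iSM KO.

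Of the 9 members, 8 passed the filter of a count over 10 in all libraries of at least 1 group. Neb, Nebl, Mybpc2, Ttn and Xirp1 were over 10 counts in all 6 libraries, Mybpc3 and Myh6 passed only through iSM KO, and Actc1 passed only through the controls. Mybpc3 and Actc1 passed through the group in which they were higher, and a filter passed in that way favours a difference in that direction. Acta1 did not pass.

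Promoter sequences are shown for 4 members that stand for the patterns found: Nebl and Mybpc2, lower in iSM KO, Mybpc3, higher, and Ttn, with overlapping groups. Each is the 250 bases upstream of an annotated start, from RefSeq on GRCm38.p6 (the build called mm10), printed 5′ to 3′ on the gene's strand. Capitals mark matches, on either strand, to motifs of muscle gene promoters: the CArG box bound by SRF, the MEF2 site, the M-CAT element CATTCC bound by TEAD factors (in Mybpc2 it lies on the opposite strand and is printed reversed and complemented), and the E-box CAGCTG. No matches overlapped in the windows shown.
Nebl, chr2:17670166-17670415, minus strand: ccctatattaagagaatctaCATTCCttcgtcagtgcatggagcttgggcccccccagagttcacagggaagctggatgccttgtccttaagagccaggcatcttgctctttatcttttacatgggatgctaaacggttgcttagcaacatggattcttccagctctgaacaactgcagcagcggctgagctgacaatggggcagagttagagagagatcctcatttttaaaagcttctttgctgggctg
Mybpc2, chr7:44524670-44524919, minus strand: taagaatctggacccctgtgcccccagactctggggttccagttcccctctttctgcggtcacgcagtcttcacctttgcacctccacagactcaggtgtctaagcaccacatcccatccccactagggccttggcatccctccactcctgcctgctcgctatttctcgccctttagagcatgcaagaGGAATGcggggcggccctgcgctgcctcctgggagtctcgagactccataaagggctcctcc
Mybpc3, chr2:91117894-91118143, plus strand: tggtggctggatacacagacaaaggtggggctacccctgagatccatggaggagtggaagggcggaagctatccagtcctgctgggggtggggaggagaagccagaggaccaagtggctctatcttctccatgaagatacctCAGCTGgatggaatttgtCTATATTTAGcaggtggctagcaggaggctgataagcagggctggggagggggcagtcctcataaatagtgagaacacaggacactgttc
Ttn, chr2:76982548-76982797, minus strand: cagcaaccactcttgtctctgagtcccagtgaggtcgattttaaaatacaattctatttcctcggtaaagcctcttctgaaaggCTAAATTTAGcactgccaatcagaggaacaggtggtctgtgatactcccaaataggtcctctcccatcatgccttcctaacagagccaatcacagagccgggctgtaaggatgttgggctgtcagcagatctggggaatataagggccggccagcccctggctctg

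Counting back from -1 at the last upstream base, the M-CAT match began at -230 in this Nebl window and at -62 in Mybpc2. Mybpc3 held a MEF2 match at -90 and CAGCTG at -108, and Ttn held a MEF2 match at -166. Among 32851 promoter windows of the same length, 12.6% held the M-CAT element, 13% CAGCTG, 2.92% a MEF2 match and 1.47% a CArG box. Of the windows not printed, the Nebl window at chr2:17462857-17463106 held a CArG box at -162, that at chr2:17526131-17526380 held no match, and Acta1 held a CArG box at -73, the M-CAT element at -46 and CAGCTG at -221. A match describes these letters only and is no evidence of binding. RefSeq entries were found for 7 of the 9 members, with 10 windows in all. The 7 windows kept lay on the chromosome of their gene and clear of annotated exons, and 3 of the 7 belonged to alternative Nebl starts. Neb and Xirp1 had no entry.

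Nebl and Neb encode relatives that lie along the thin filament. Nebl (ENSMUSG00000053702, GRCm38 chr2:17343909-17731464, minus strand) encodes nebulette, a Z-disc protein of heart muscle, and from another start the LIM-nebulette form, an actin-binding protein found outside striated muscle too. It was at 15.1, 16.1 and 15.9 CPM in controls 1 to 3 and at 5.10, 5.90 and 6.32 CPM in iSM KO 1 to 3. The tightest of the lower members, it kept its highest iSM KO library well below its lowest control. Group means were 15.7 ± 0.527 and 5.78 ± 0.620 CPM (SD, n = 3 each). The fitted difference was -1.44 ± 0.11 (SE) in log2 units. The counts are per gene, so the nebulette and LIM-nebulette forms could not be told apart.

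Neb (ENSMUSG00000026950, chr2:52136647-52378474, minus strand) encodes nebulin, the giant protein that spans skeletal thin filaments and takes part in setting their length. It was at 4.42, 7.08 and 6.79 CPM in controls 1 to 3 and at 2.90, 3.01 and 2.46 CPM in iSM KO 1 to 3. The groups did not overlap, and control 1 lay nearest to the iSM KO libraries. Means were 6.10 ± 1.46 and 2.79 ± 0.287 CPM (SD, n = 3), and the fitted difference was -1.13 ± 0.21 (SE) in log2 units.

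The myosin-binding protein C genes went in opposite directions. Mybpc2 (ENSMUSG00000038670, chr7:44501699-44524656, minus strand) encodes the fast skeletal form, which sits on the thick filament. It was at 2.15, 2.78 and 1.59 CPM in controls 1 to 3, from 38 to 107 counts, and at 0.368, 0.659 and 0.438 CPM in iSM KO 1 to 3, from 15 to 23 counts. All controls lay above all iSM KO libraries, with means of 2.18 ± 0.596 and 0.488 ± 0.152 CPM (SD, n = 3). The log2 fold change, -2.17 ± 0.33 (SE), was the most negative among the members tested. Of its exonic bases, 5.32% overlap the transcript Gm44646 on the opposite strand.

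Mybpc3 (ENSMUSG00000002100, chr2:91118144-91136516, plus strand) encodes the cardiac form, a common gene of inherited hypertrophic cardiomyopathy. It had 9, 1 and 0 counts in controls 1 to 3, which is 0.269, 0.0260 and 0 CPM, and the 0 of control 3 allows up to 0.126 CPM (3 counts). In iSM KO 1 to 3 it had 74, 55 and 30 counts, or 1.82, 1.58 and 0.821 CPM. The groups did not overlap, although the level stayed low in each. Pooled over libraries, 10 control and 159 iSM KO counts gave a ratio of 13.6, which describes these counts only. The fitted log2 fold change was 3.72 ± 0.73 (SE), and 6.18 without control 1, which held 9 of those 10 control counts.

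**Figure D1:**
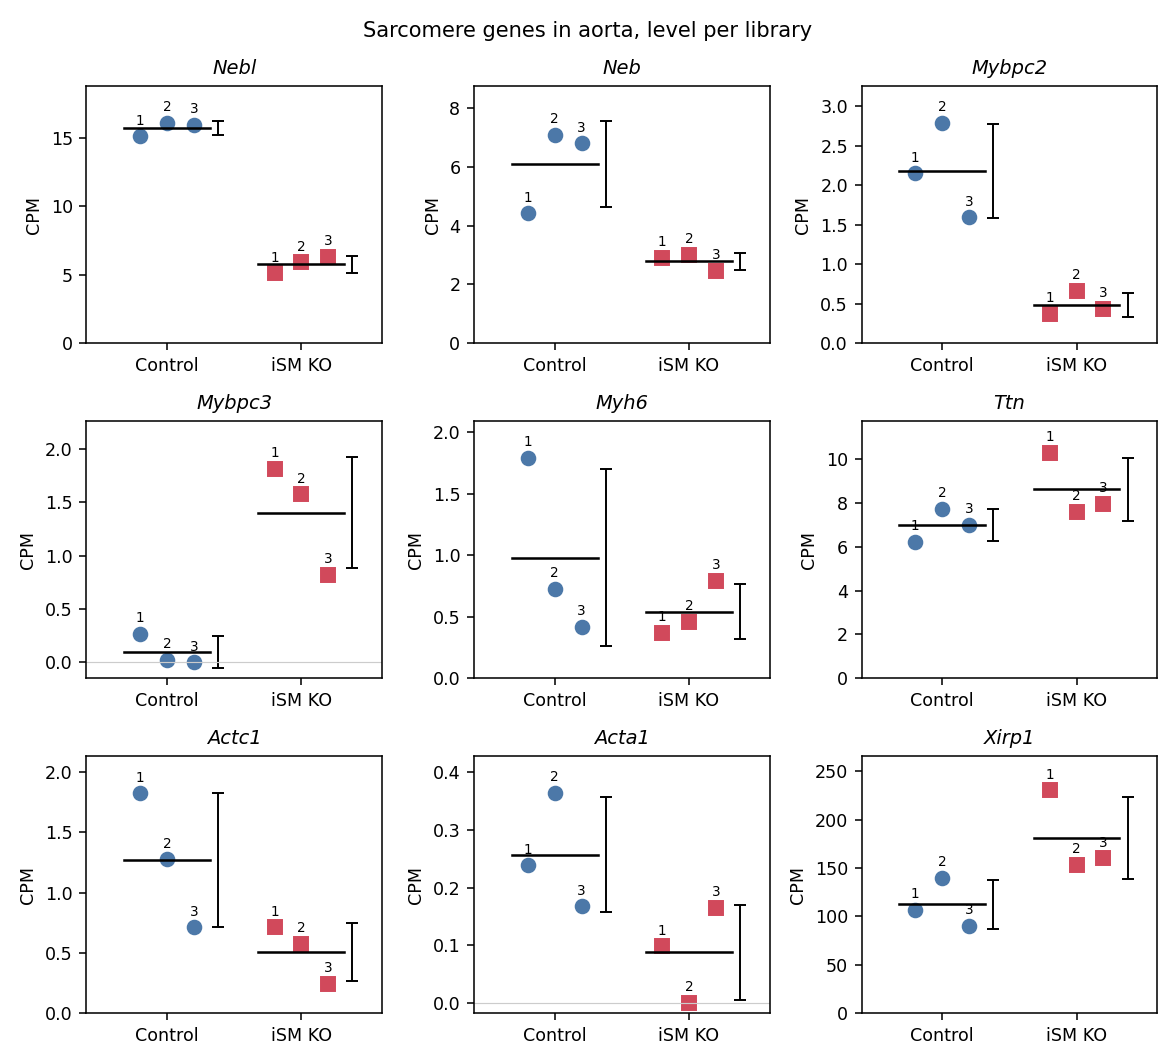
Level of each of the 9 sarcomere genes in CPM (linear axes of differing range) in 3 control (blue circles) and 3 iSM KO (red squares) libraries, numbered by replicate; lines are group means and the bars beside them ± 1 SD. Nebl, Neb and Mybpc2 lie lower and Mybpc3 and Xirp1 higher in all iSM KO libraries, while the groups overlap for Ttn and Myh6.

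Myh6 and Ttn did not separate the groups. Myh6 (ENSMUSG00000040752, chr14:54941921-54966927, minus strand) encodes the alpha myosin heavy chain of the adult mouse heart. It was at 1.79, 0.729 and 0.419 CPM in controls 1 to 3 and at 0.368, 0.458 and 0.794 CPM in iSM KO 1 to 3. Control 1 stood above the other 5 libraries, which lay together. The log2 fold change of -0.88 ± 0.53 (SE) became -0.13 without control 1. Of its longest transcript, 19.0% is near-identical to other genes, Myh7 first among them, and its estimated counts were not whole in 5 of 6 libraries, whereas the other 8 members had whole counts throughout.

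Control 1 was the highest of the 6 libraries for 2 of 11 cardiomyocyte markers (Myl2 and Tnni3) and for 3 of 14 skeletal muscle markers (Myh4, Tnnt3 and Mb). Its cardiomyocyte markers summed to 16.4 CPM, below control 3 and all iSM KO libraries. Most of that sum was Myoz2 (10.9 CPM) and Myl4 (3.70 CPM), so it says little about the scarcer markers. Among the controls it was the highest for Mybpc3 and Actc1. The part of such cells in the Myh6 level of control 1 was not tested.

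Ttn (ENSMUSG00000051747, chr2:76703980-76982547, minus strand) encodes titin, the molecular spring that runs from Z-disc to M-band. It was at 6.24, 7.73 and 7.0 CPM in controls 1 to 3 and at 10.3, 7.59 and 7.97 CPM in iSM KO 1 to 3. Control 2 lay above iSM KO 2, so the groups overlapped, and iSM KO 1 was the highest. Means were 6.99 ± 0.745 and 8.61 ± 1.46 CPM (SD, n = 3) and the log2 fold change 0.30 ± 0.15 (SE), falling to 0.15 without iSM KO 1.

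The striated alpha-actins were scarce. Actc1 (ENSMUSG00000068614, chr2:114047282-114053548, minus strand), the cardiac form, was at 1.82, 1.28 and 0.713 CPM in controls 1 to 3 and at 0.712, 0.573 and 0.246 CPM in iSM KO 1 to 3. The groups all but touched at control 3 and iSM KO 1, and their means were 1.27 ± 0.554 and 0.510 ± 0.239 CPM (SD, n = 3). The log2 fold change was -1.32 ± 0.45 (SE). Acta1 (ENSMUSG00000031972, chr8:123891769-123894751, minus strand), the skeletal form, had 8, 14 and 4 counts in controls 1 to 3 and 4, 0 and 6 in iSM KO 1 to 3, or 0.168 to 0.364 CPM against 0 to 0.164 CPM. At this depth its level cannot be given with useful precision. Pooled over libraries, 26 control and 10 iSM KO counts gave a ratio of iSM KO to control of 0.328, which describes these counts only. Acta2, the vascular actin, was at 7500 to 10634 CPM in controls and 6942 to 8669 CPM in iSM KO. The longest transcripts of Actc1 and Acta1 had no alignment of 100 bp or more with 95% overall identity to another gene's transcript. Stretches inside a longer alignment below 95% were not sought, so reads shared with Acta2 were not tested.

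Xirp1 (ENSMUSG00000079243, chr9:120013755-120023598, minus strand) encodes Xin, an actin-binding repeat protein of the intercalated disc and of repairing muscle. It was at 107, 140.2 and 90.4 CPM in controls 1 to 3 and at 230.2, 153 and 160.1 CPM in iSM KO 1 to 3. All iSM KO libraries were above all controls, iSM KO 2 and control 2 being nearest to each other. Means were 112 ± 25.4 and 181 ± 42.6 CPM (SD, n = 3), and the log2 fold change was 0.69 ± 0.19 (SE).

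Over the 8 members tested, 5 had a negative and 3 a positive log2 fold change, with a median of -1.0 beside -0.01 over all 16565 genes. With an FDR under 0.05 and a fold change over 2, 3 members were lower, where 1.38% of all genes tested were, and 1 was higher, where 1.4% were. The groups did not overlap for 6 of the 8, and they did not for 27.9% of all genes tested. Nothing is read from these counts, since the members were selected on the same contrast.

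**Figure D2:**
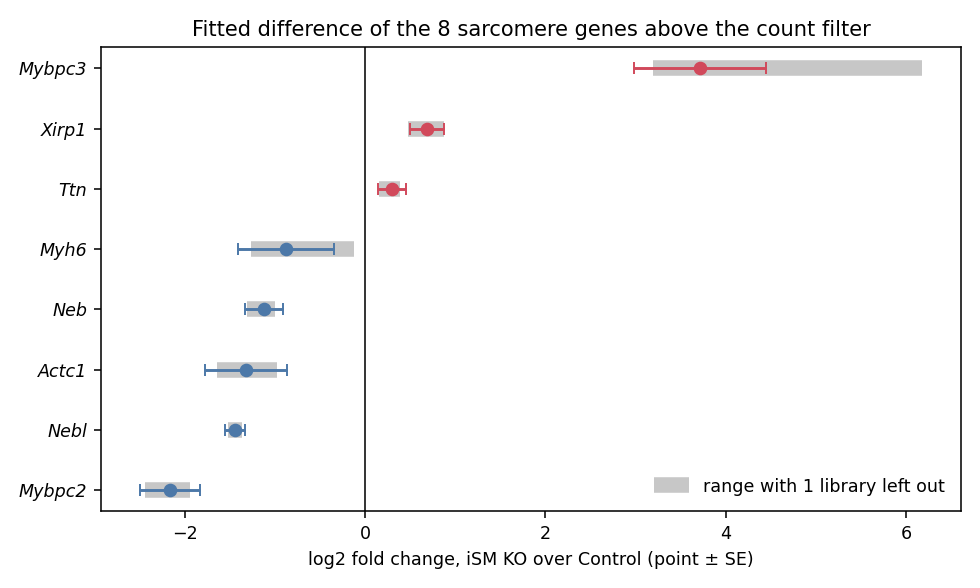
Fitted log2 fold change (iSM KO over control, edgeR) of the 8 members above the count filter, with ± 1 SE as thin bars and, as grey bands, the range when each of the 6 libraries was left out in turn. The signs hold in all bands, and those of Mybpc3 (3.19 to 6.18) and Myh6 (-1.27 to -0.13) are the widest.

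Levels of different genes were compared per kilobase of exon. In controls Xirp1 came first at 19.3 ± 4.35 CPM per kb (SD, n = 3), followed by Nebl at 1.03 ± 0.0346, Actc1 at 0.785 ± 0.342 and Mybpc2 at 0.603 ± 0.165. Xirp1 stood clear of Nebl, whereas Nebl overlapped with Actc1 and Actc1 with Mybpc2. Neb, Acta1, Myh6, Ttn and Mybpc3 followed, all below Mybpc2 and from 0.229 down to 0.0236 CPM per kb in the mean, each overlapping with the next. Acta2 was at 3926 ± 795 and Myh11 at 1025 ± 57.6 CPM per kb in the same libraries.

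In iSM KO, Xirp1 remained first at 31.0 ± 7.29 CPM per kb (SD, n = 3) and Nebl was at rank 2 with 0.379 ± 0.0407. Mybpc3, at rank 9 among controls, stood at rank 3 with 0.337 ± 0.125 CPM per kb, and overlapped with Nebl above and Actc1 below. Titin, spread over 116825 exonic bases, was at 0.0737 ± 0.0125 CPM per kb. With the longest transcript in place of all exons, the control level of Nebl was 1.94 CPM per kb and its rank was unaltered.

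**Figure D3:**
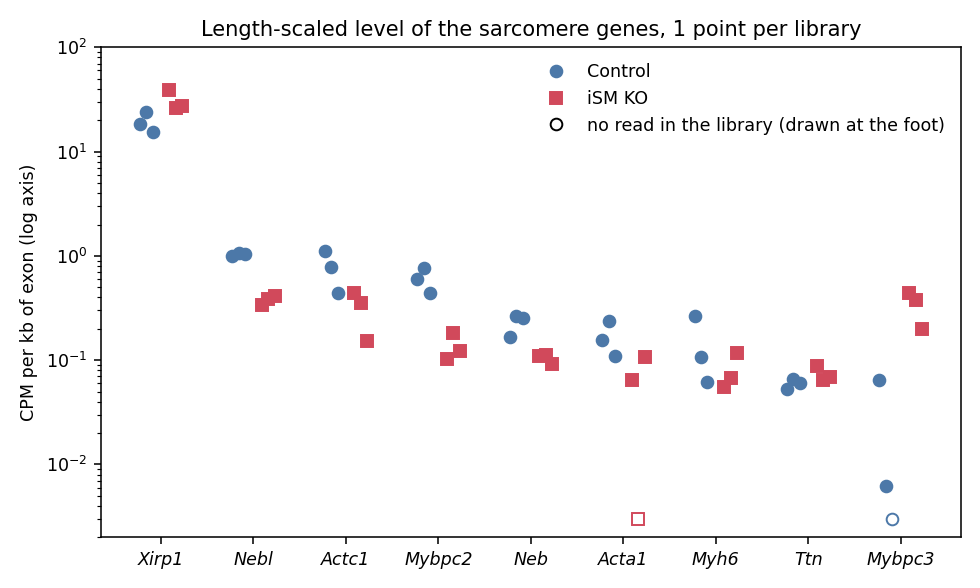
Level of the 9 members in CPM per kb of exon (log axis) in each control (blue circles) and iSM KO (red squares) library, ordered by the control mean; open symbols mark a library with no read. Xirp1 lies at 15.5 to 39.4 CPM per kb, the others at or below 1.13, and Mybpc3 moves from last place to near the level of Nebl.

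The profiles most like each member's were sought among all tested genes, as the smallest root mean square difference of centred log2 CPM over the 6 libraries. For Nebl these were Adamtsl3 (0.0677) and Acan (0.104), both extracellular matrix genes, and for Neb they were Etnk2 (0.117) and Rasd1 (0.145). Mybpc2 was nearest to Angpt4 (0.213) and Thsd7b (0.231). Ttn was nearest to Strada (0.0267) and Uck2 (0.0479), and Xirp1 to Ctsw (0.0856) and Gm48829 (0.112). None of these is a sarcomere gene.

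The other genes of the sarcomere, which had not chosen the members, were counted in 5 lists of 78 genes, 43 of them tested. At an FDR under 0.05, 12 were higher, among them Lmod2, which the count filter kept only through iSM KO, and 3 lower in iSM KO (27.9% and 6.98% of those tested), while 4.26% of all tested genes were higher and 3.3% lower. The median log2 fold change of the 43 was 0.15. Without iSM KO 1, and likewise without iSM KO 2, 9 passed in place of 15. The lists were written with earlier results of these data known, and are a description of named genes rather than independent evidence of a direction.

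Of the thick filament genes, 18 of 20 were below the count filter, among them the heavy chains of adult skeletal muscle and Myh7. Of the 2 tested, Myl4, the atrial light chain, had a log2 fold change of 0.46 (FDR 0.174) and Mylk2 one of -0.18 (FDR 0.370), with edgeR's test.

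In the thin filament list, 3 of 12 tested genes rose and 0 fell (edgeR), beside 4.26% higher and 3.3% lower among all tested genes. Tnnt2, cardiac troponin T, rose by 5.69 ± 0.19 (SE) in log2 units, with means of 13.9 ± 3.44 and 718 ± 22.7 CPM (SD, n = 3; edgeR FDR 1.71e-06). Lmod2, which lengthens thin filaments from their pointed end, rose from a pooled 4 to 55 counts (ratio 11.7, 95% interval 4.33 to 44.6, counting error only, edgeR FDR 0.0152). It passed the count filter only through iSM KO, which favours a rise, so its interval and FDR support nothing. Tmod1, which caps the same end, rose with a log2 fold change of 1.28 ± 0.16 (edgeR FDR 0.00208). The most abundant genes of the list, Tpm1 and Tpm2, serve smooth muscle too and differed by 0.18 and -0.10 in log2 units (FDR 0.323 and 0.534 with edgeR). All 3 genes that rose were higher in 3 of 3 iSM KO libraries, and Lmod2 did not pass without iSM KO 1 or iSM KO 2 (FDR 0.0513 and 0.064). No gene of the list fell with DESeq2 or limma-voom either, and 1 was lower at an unadjusted p under 0.05.

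Nebulin, nebulette, titin and Xin all meet the Z-disc or its neighbours. In the Z-disc list 7 of 18 tested genes rose and 2 fell, beside 4.26% higher and 3.3% lower among all tested genes. Ankrd1, a stress-responsive protein of the titin spring region, rose by 2.91 in log2 units, with means of 6.26 ± 1.43 and 47.6 ± 8.11 CPM (SD, n = 3; edgeR FDR 5.96e-05). Des, the muscle intermediate filament desmin, rose by 1.24, Pdlim3 by 1.17 and Flnc, which binds Xin, by 0.98 on the log2 scale (edgeR FDR 0.00381, 0.000596 and 0.0163). Palld, Actn2 and Ldb3 also rose, and Tcap, the telethonin cap of titin, and Cmya5 fell by 0.93 and 0.82 on the log2 scale (edgeR FDR 0.0324 and 0.00096); these 5 lay outside the naming rule and were named after their values were seen. Des, Flnc, Pdlim3 and Synpo2, the last at a log2 fold change of 0.22 (edgeR FDR 0.440), are also expressed in smooth muscle. Flnc and Actn2 did not pass without iSM KO 1 (FDR 0.0605 and 0.0762) or iSM KO 2 (FDR 0.0763 and 0.0871), and Ldb3 and Tcap passed in only 2 of the 6 fits that left out a library.

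Among M-band genes and partners of titin, 0 of 5 tested passed the edgeR test, 1 being lower at an unadjusted p under 0.05, and 0 passed with DESeq2 or limma-voom. Myom1, the M-band protein myomesin, was at 370.0 to 453 CPM in controls and 332 to 481 CPM in iSM KO, and Speg had a log2 fold change of 0.10 (FDR 0.572). In the assembly list, 2 of 6 rose and 1 fell, beside 4.26% higher and 3.3% lower among all tested genes. Klhl40 and Klhl41, a pair of kelch proteins that stabilise nebulin, went in opposite directions, Klhl40 with a log2 fold change of 1.10 ± 0.24 (edgeR FDR 0.0252) and Klhl41 with one of -1.45 ± 0.27 (FDR 0.0129). Klhl41 passed in all 6 fits that left out a library, and Klhl40 in only 1 of them, the fit without control 1. Fbxo40, a muscle ubiquitin ligase subunit, rose by 0.85 on the log2 scale (edgeR FDR 0.00106), and the chaperones Hspb7 and Bag3 differed by 0.45 and 0.34 in log2 units (FDR 0.075 and 0.0942 with edgeR).

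**Figure D4:**
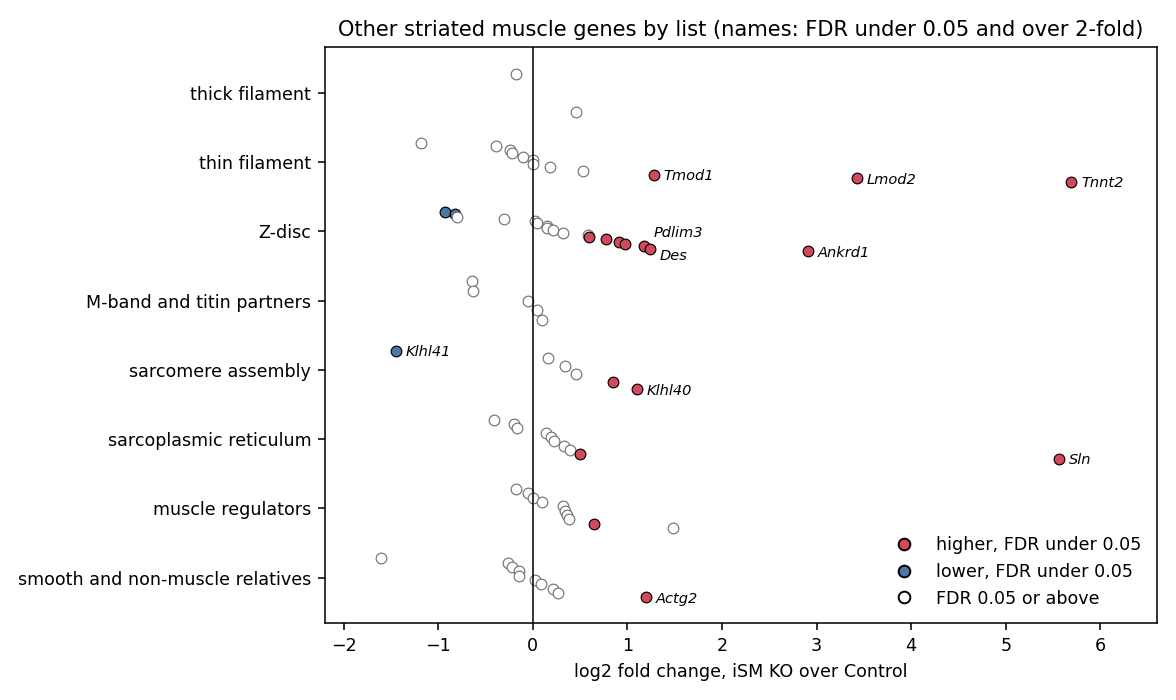
Log2 fold change (iSM KO over control) of each tested gene of 8 fixed lists, 1 point per gene; red and blue mark an FDR under 0.05 (edgeR), open points the rest, and names are given to coloured points past a 2-fold change. Tnnt2, Lmod2, Ankrd1 and Sln lie furthest right, and Klhl41 is the named gene on the left, where the open points of Myh14 (-1.61) and Tnnc1 (-1.18) did not pass the test.

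Sarcomeres contract on calcium released from the sarcoplasmic reticulum. With edgeR, 2 of 10 tested genes of this store rose, beside 4.26% higher among all tested genes. None fell with edgeR, DESeq2 or limma-voom, and 0 were lower at an unadjusted p under 0.05. Sln, sarcolipin, an inhibitor of the calcium pump in atrial and slow muscle, had 0, 1 and 0 counts in controls 1 to 3 and 32, 27 and 15 counts in iSM KO 1 to 3 (ratio 63.2, 95% interval 10.99 to 2529, counting error only; edgeR FDR 0.0027). It passed the count filter only through iSM KO, which favours a rise, so its interval and FDR support nothing, and Ryr2 is the other gene counted as risen. Ryr2, the cardiac calcium release channel, rose by 0.50 on the log2 scale (FDR 0.0459) but passed only without control 2 or iSM KO 3 among the 6 fits that left out a library. Atp2a2 and Jph2, the most abundant, differed by 0.22 and 0.39 in log2 units (FDR 0.216 and 0.0967 with edgeR).

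Of 10 tested muscle regulators 1 rose, beside 4.26% higher among all tested genes, and nothing about the list is read from 1 gene. Myocd, myocardin, the partner of SRF at CArG boxes, had a log2 fold change of 0.65 ± 0.12 (edgeR FDR 0.0109), and Mef2a one of -0.17 (FDR 0.276). Myocd did not pass without iSM KO 1 (FDR 0.051), and 4 regulators passed with DESeq2. The master factors of skeletal muscle, Myod1 and Myog, and the cardiac factors Nkx2-5 and Tbx5 were below the count filter. Of 10 smooth muscle and non-muscle relatives of the members 1 rose, beside the same share of all tested genes. It was the enteric actin Actg2, with means of 128 ± 12.6 and 294 ± 29.3 CPM (SD, n = 3) and an edgeR FDR of 0.000357. Acta2 and Myh11, the abundant counterparts of Actc1, Acta1 and Myh6, differed by -0.14 and 0.21 in log2 units (FDR 0.660 and 0.333 with edgeR).

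Markers of cell types that could carry sarcomere RNA were set beside these values. Of 11 cardiomyocyte markers, 9 were under 1 CPM in all 6 libraries, and the list summed to 15.6 to 19.96 CPM in controls and 18.2 to 19.2 CPM in iSM KO, most of it Myoz2 and Myl4. Of 14 skeletal muscle markers, 11 were under 1 CPM in all libraries, Myh1 and Myh2 had 1 count or fewer in each, and the sums were 9.03 to 11.2 and 9.77 to 12.0 CPM. None of either list was at 0 in every library. Both sums overlapped between the groups, and 0 of the 3 cardiomyocyte and 4 skeletal muscle markers tested passed with edgeR, DESeq2 or limma-voom (1 and 0 at an unadjusted p under 0.05 with edgeR).

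The sums of some other marker lists did move with the groups. Adipocyte markers, some of them shared by white and brown fat, summed to 29.0, 163 and 85.8 CPM in controls 1 to 3 and to 7.25 to 12.8 CPM in iSM KO, and 4 of 4 tested fell with edgeR and DESeq2, 1 of 4 with limma-voom. Brown adipocyte markers summed to 18.2 to 52.3 against 11.9 to 14.1 CPM, with 1 of 3 tested lower, where 3.3% of all tested genes were. Of this list Cidea separated the groups (3.01 to 8.51 against 1.46 to 1.67 CPM), whereas Ucp1, Dio2 and Elovl3 overlapped. Fibroblast markers summed to 1032 to 1288 against 776 to 800 CPM, most of it Col1a1. With edgeR 0 of 5 passed and 5 were lower at an unadjusted p under 0.05, while 2 were lower with DESeq2. Col1a1 and Pi16 separated the groups, whereas Pdgfra, Dcn and Lum overlapped. Over the same controls 1 to 3, Nebl was at 15.1, 16.1 and 15.9 CPM and Neb at 4.42, 7.08 and 6.79. Mybpc2 was at 2.15, 2.78 and 1.59 CPM and Actc1 at 1.82, 1.28 and 0.713 CPM. The part of these cells in the lower levels of Nebl, Neb, Mybpc2 and Actc1 was not tested. Endothelial, macrophage and Schwann cell sums overlapped between the groups, and none of their tested genes passed with edgeR, while 1 macrophage marker was lower with DESeq2.

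**Figure D5:**
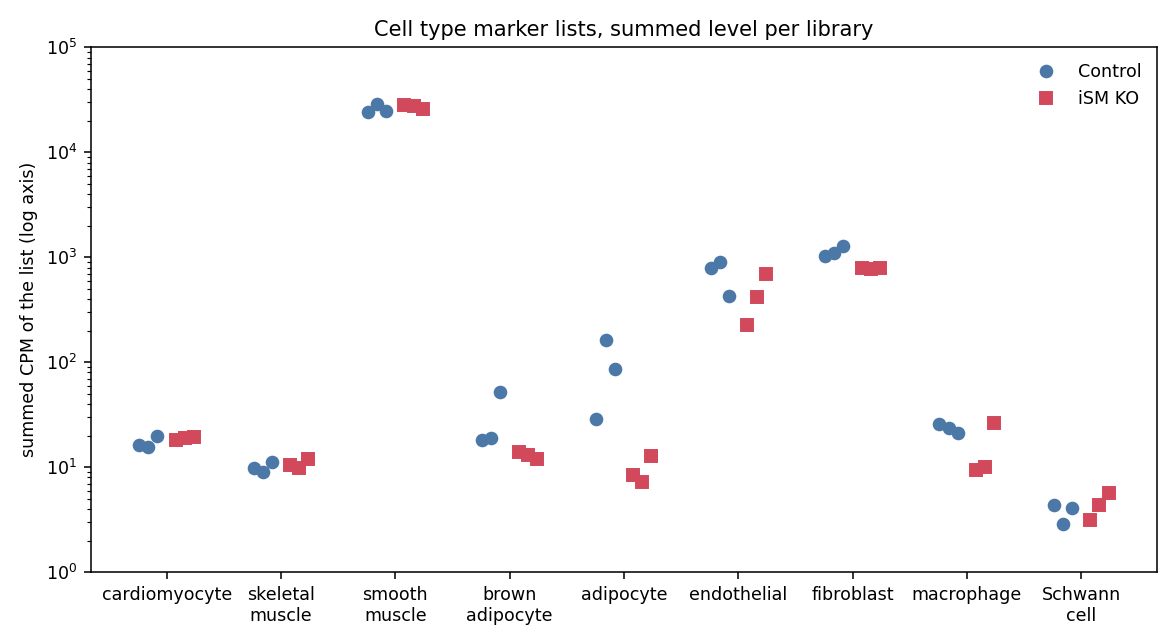
Summed CPM of 9 cell type marker lists (log axis) in each control (blue circles) and iSM KO (red squares) library. Cardiomyocyte and skeletal muscle lists stay at 15.6 to 19.96 and 9.03 to 12.0 CPM. The sums of both adipocyte lists and the fibroblast list lie lower in all iSM KO libraries, although some single brown adipocyte and fibroblast markers overlap.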

How the data were processed

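Bulk RNA-seq of 3 control and 3 iSM KO aortas gave 1 library each. Per the study's methods, total RNA was depleted of ribosomal RNA and sequenced as paired-end reads, and the authors ran Illumina DRAGEN on an Ensembl mm10 reference. What was deposited is an estimated count for each gene and library, without scaling or rounding, and 10.9% to 12.2% of a library's values were not whole. How reads matching several genes were shared is not given in the sources used here, nor is strand.

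Counts were rounded, and genes with a count over 10 in all libraries of at least 1 group were kept (16565 of 55487), as in the study. edgeR 4.0.16 in R 4.3.3 (TMM, glmQLFit, glmQLFTest, no covariates) gave log2 fold changes and Benjamini-Hochberg FDR over all tested genes. Each SE is the absolute log2 fold change divided by the square root of the test's F statistic, so it holds nothing beyond that statistic. CPM used TMM-scaled library sizes. Exon lengths and positions came from GENCODE M21 (GRCm38) and promoters from RefSeq (GRCm38.p6). Near-identical copies came from blastn 2.17.0, as alignments of at least 100 bp with 95% identity as a whole. Pairs of libraries differed by more than sampling noise.

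The members and the gene lists were chosen with earlier results of these data known, so members carry no test. Named genes are the 9 members, Prdm16, in each muscle list up to 4 genes with an FDR under 0.05 by size of change and the 2 most abundant, and the 2 nearest profiles of each member over 10 counts in all 6 libraries; others were named after their values were seen, as were the markers that control 1 led and Myh14 and Tnnc1. Intervals, given for Lmod2 and Sln, are exact, pool the counts of each group and cover counting error only, without the variation between mice. Alternatives were DESeq2 1.42.0, limma-voom (limma 3.58.1), DESeq2's size factors, no count filter, filterByExpr, a block for the replicate number, leaving out 1 library at a time, and the longest transcript as length.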

Additional observations from a re-analysis of the deposited data

How the results depend on the processing

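All 8 tested members kept the sign of their log2 fold change under all alternatives fitted. Leaving out each library in turn gave -1.52 to -1.36 for Nebl, -1.31 to -1.0 for Neb, -2.44 to -1.94 for Mybpc2, 3.19 to 6.18 for Mybpc3 (6.18 without control 1), -1.27 to -0.13 for Myh6, 0.15 to 0.39 for Ttn, -1.65 to -0.98 for Actc1 and 0.48 to 0.88 for Xirp1. Depth limits Acta1, Mybpc3, Myh6 and Actc1, which had under 100 counts in each library. It also limits Mybpc2, which had 15 to 23 counts in the iSM KO libraries. Per kb, the longest transcript moved the control level of Nebl from 1.03 to 1.94 CPM per kb.

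Over all genes, 461 passed the FDR and 2-fold thresholds and 1252 the FDR alone; without 1 library these numbers were 290 to 528 and 516 to 1402, and the lowest of each came without iSM KO 2. DESeq2 gave 516 and 1711, limma-voom 450 and 1244. For the 43 other sarcomere genes, 15 passed, 9 without iSM KO 1 and 9 without iSM KO 2 (range 9 to 14 over the 6 fits). For the sarcoplasmic reticulum genes 2 passed, and 1 to 3 without 1 library, with 1 without control 1, control 3, iSM KO 1 or iSM KO 2. For muscle regulators 1 passed, 4 with DESeq2, 3 with no count filter and 0 to 2 without 1 library. For the smooth and non-muscle relatives 1 passed, 2 with DESeq2 and 1 to 2 without 1 library. Among genes that did not pass, Acta2 ranged from -0.24 to 0.038 (above 0 without control 2) and Myom1 from -0.067 to 0.183 (below 0 without control 3, iSM KO 1 or iSM KO 2). The cause of these differences was not tested.

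The labels do not say whether replicate numbers pair the mice. Same-numbered control and iSM KO libraries deviated from their group means with correlations of -0.13, -0.05 and -0.11 across genes. Each control had its lowest correlation with the iSM KO library of its own number. These few correlations cannot settle whether the mice were paired. With the replicate number as a block, 775 genes passed the FDR and 353 both thresholds, with 12 other sarcomere genes, 1 sarcoplasmic reticulum gene, 1 regulator and 1 relative. Actn2, Klhl40, Lmod2 and Ryr2 did not pass in that fit.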
